A study of Arabidopsis thaliana with 12 samples.

Results

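The genotype difference under dexamethasone (DEX) was taken between 35S:LOB-GR seedlings with DEX and Columbia wild-type (Col) seedlings with DEX. The arrays were chosen by their labels, 3 of each genotype, 6 of the 12 arrays of the series. 35S:LOB-GR carries LATERAL ORGAN BOUNDARIES (LOB) joined to the steroid-binding part of the glucocorticoid receptor (GR) and expressed from the constitutive 35S promoter, in the Col-0 background. Both groups were 9-day-old seedlings from agar plates, shaken for 4 h in liquid medium with 5 µM DEX. The remaining 6 arrays were of the same genotypes shaken without DEX (mock), and they served here to ask whether a genotype difference was also present without the steroid. The number of independent transgenic lines and of seedlings pooled per array is not stated in those sources that were used. The 35S promoter acts in most cells, so the transgene was not restricted to the boundary cells where LOB is normally active.

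LOB is a plant-specific transcription factor expressed at the boundary between the shoot meristem and new organs and at the base of lateral organs, where cells divide and expand little. It is known in Arabidopsis to limit brassinosteroids, a class of growth-promoting steroid hormones, in those cells. A GR fusion protein stays in the cytoplasm until it binds a glucocorticoid such as DEX, and wild-type plants have no such receptor. Cell expansion in seedlings depends on wall-loosening proteins, on microtubules that guide cellulose deposition, and on auxin and brassinosteroid, and these gene groups are therefore taken first.

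Levels are log2 expression values made with RMA, which removes background, gives every array the same distribution of intensities and reduces the probes of a set to 1 value. A difference of 1 on this scale is a 2-fold difference. All 22746 non-control probe sets were tested with limma over the 12 arrays, and a probe set was called at a Benjamini-Hochberg adjusted p under 0.05. Each difference is 35S:LOB-GR minus Col, given with its standard error (SE). Group levels are means ± SD of 3 arrays, labelled as biological replicates. Whole seedlings were extracted, so fewer cells of a type and less RNA per cell cannot be told apart.

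The DEX arrays of a genotype correlated at 0.992 or higher with one another (Pearson; the points are probe sets of the same arrays, not independent samples). The first principal component of the 6 DEX arrays accounted for 70.7% of the variance, and the genotypes lay at its opposite ends. Replicate 1 of 35S:LOB-GR with DEX was the array that departed most from the mean of its group, by a root mean square of 0.166 against 0.0987 to 0.142 for the other 5 arrays. An RNA quality measure, the actin control's 3' minus 5' signal, was 1.17, 1.08 and 1.06 in the 35S:LOB-GR DEX arrays and 0.92, 0.90 and 1.02 in the Col DEX arrays (log2). It did not overlap between the genotypes, and its part in the results was not tested. The GAPDH control gave -0.27, -0.36 and -0.33 in 35S:LOB-GR and -0.23, -0.13 and -0.28 in Col, which did overlap. A transcript of LOB itself was not among the named probe sets and is not analysed here.

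Under DEX 4880 probe sets (21.5%) were called, 2665 higher (11.7%) and 2215 lower (9.74%) in 35S:LOB-GR. Differences of 2-fold or more were mostly negative: 228 called probe sets were that much higher (1%) and 481 that much lower (2.11%). The median absolute difference of the called probe sets was 0.51. Taking each named gene by its brightest probe set, 2544 of 13356 genes (19%) were called, 1454 higher (10.9%) and 1090 lower (8.16%). The median difference over all genes was 0.02. There was no overlap between the genotypes' arrays for 7705 probe sets (33.9%, with 18.5% higher and 15.3% lower), 4717 of them called. The annotation named 1 gene for 2564 of the called probe sets, several for 94 and none for 2222, and the unnamed ones hold the extreme differences of 3.95 and -5.31.

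**Figure D1:**
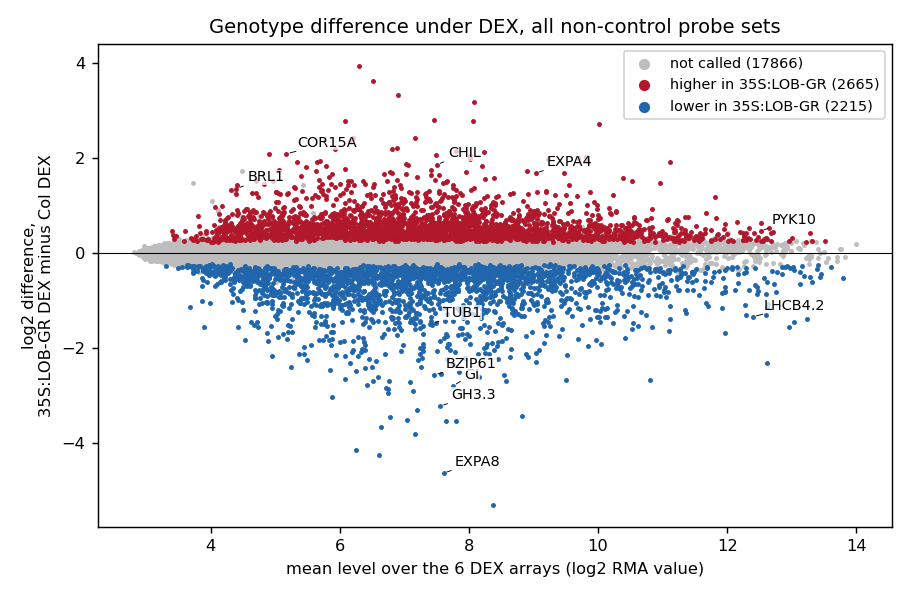
Mean log2 level over the 6 DEX arrays (horizontal) against the log2 genotype difference, 35S:LOB-GR minus Col (vertical), for 22746 probe sets. Red points were called higher and blue points lower in 35S:LOB-GR. The lower side reaches farther, to EXPA8 at -4.64 among named genes, and called points occur over the whole range of levels.

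Wall and auxin genes were among the largest falls. EXPA8, an alpha-expansin that loosens cell walls, measured 5.72, 4.83 and 5.32 in the 35S:LOB-GR arrays and 9.74, 9.93 and 10.12 in the Col arrays. All 3 transgenic arrays lay far below all 3 wild-type arrays, and the difference of -4.64 ± 0.23 (SE) was the largest of any named gene (limma adjusted p = 2.88e-09). GH3.3, an enzyme that conjugates auxin to amino acids, measured 6.22, 5.60 and 5.998 in 35S:LOB-GR and 8.99, 9.13 and 9.39 in Col. The difference was -3.23 ± 0.25 (limma adjusted p = 2.53e-07). GIGANTEA (GI), a component of the circadian clock, measured 6.58, 6.37 and 6.12 in 35S:LOB-GR and 9.05, 9.13 and 9.29 in Col. Its genotypes were also fully separated, with a difference of -2.80 ± 0.21 (limma adjusted p = 1.86e-07). BZIP61, a basic leucine zipper factor, measured 6.38, 6.11 and 6.05 in 35S:LOB-GR and 8.66, 8.72 and 8.88 in Col. The difference was -2.57 ± 0.15 (limma adjusted p = 1.73e-08).

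The other 11 of the 15 largest named falls are genes that the annotation gives only by locus. AT5G62280 was at 4.47 ± 0.33 in 35S:LOB-GR and 8.74 ± 0.17 in Col, a fall of -4.27 ± 0.23. AT1G62510 was the most abundant of them in Col, at 9.47 ± 0.39 in 35S:LOB-GR and 12.15 ± 0.10 in Col. AT4G18970 had the smallest adjusted p of the 15 (limma, 9.05e-10), with 7.37, 7.12 and 7.18 in 35S:LOB-GR and 9.94, 9.89 and 9.97 in Col. In order of size the rest were AT3G13980 (-2.91), AT4G34220 (-2.72), AT5G50335 (-2.70), AT5G01210 (-2.61), AT5G02540 (-2.58), AT3G07010 (-2.52), AT3G12710 (-2.40) and AT1G75960 (-2.40). Each of the 15 kept its call when any one DEX array was left out.

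Rises were smaller. AT3G28270 led them with 7.19, 7.74 and 7.31 in 35S:LOB-GR and 4.95, 4.96 and 5.08 in Col. The difference was 2.42 ± 0.22 (limma adjusted p = 1.38e-06). It was followed by AT2G23910 (2.36), AT1G70000 (2.197), AT3G44970 (2.19) and AT1G47400 (2.15). SINA2 (AT3G13672) stood at 5.94 ± 0.38 in 35S:LOB-GR and 3.85 ± 0.22 in Col, a rise of 2.097. AT1G30260 was at 7.96 ± 0.41 in 35S:LOB-GR and 6.07 ± 0.088 in Col, a rise of 1.89 ± 0.19. CHIL, a chalcone isomerase-like protein of flavonoid synthesis, measured 8.09, 8.71 and 8.51 in 35S:LOB-GR and 6.60, 6.62 and 6.51 in Col, and differed by 1.86 ± 0.18. The remaining rises were AT5G47610 (2.04), AT3G16530 (2.001), AT1G06000 (1.99), AT5G57785 (1.98), AT5G38980 (1.93) and AT1G17090 (1.92), each called by limma and separated by genotype.

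COR15A, a cold-induced chloroplast protein, was the most uneven of the 15 rises. It measured 7.80, 5.53 and 5.33 in 35S:LOB-GR and 3.81, 4.15 and 4.42 in Col, so that replicate 1 of 35S:LOB-GR stood more than 2 log2 units above the other transgenic arrays. The difference was 2.09 ± 0.45 with that array and 1.301 without it, and it was called both ways (limma adjusted p = 0.00333 with all arrays). Several of the genes above had a mean under 4.5 in one genotype, a level below which 31.9% of all probe sets lay. COR15A, SINA2 and AT1G17090 did so in Col, and AT1G75960 and AT5G62280 in 35S:LOB-GR. No detection calls were used, so the sizes of these differences are less certain than their direction.

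**Figure D2:**
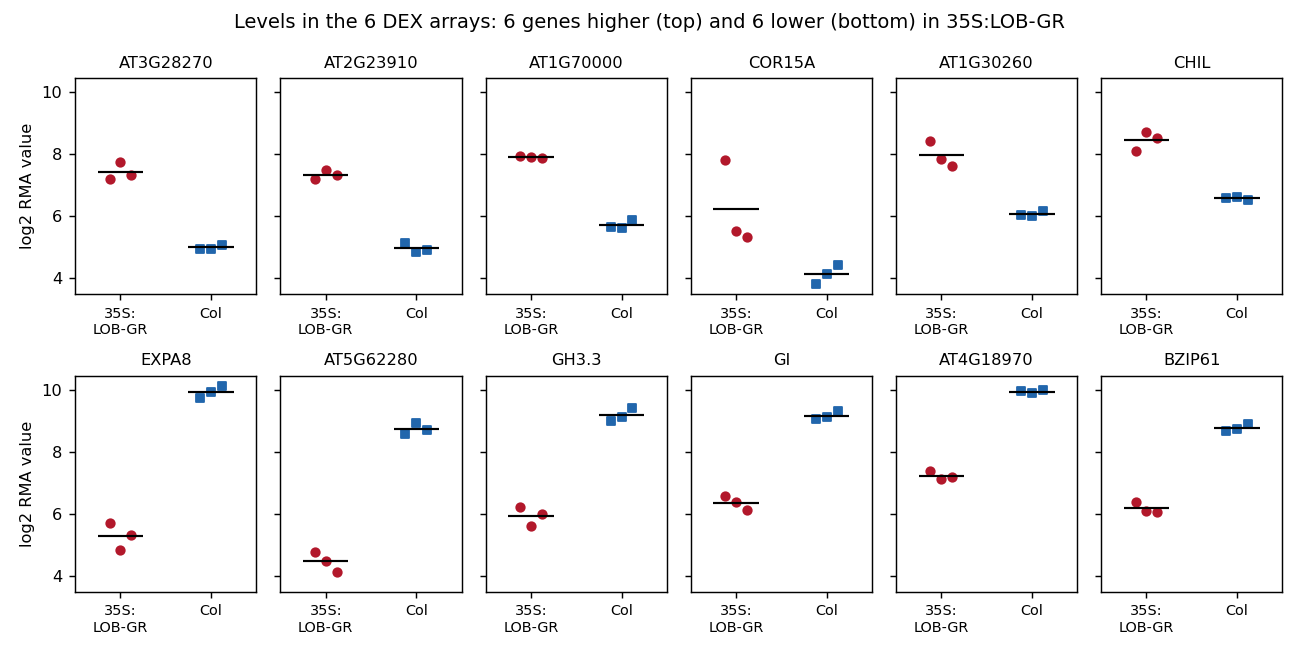
Log2 RMA level of 12 genes in the 6 DEX arrays, 35S:LOB-GR (red circles) left of Col (blue squares), with the group mean as a bar. The genotypes do not overlap for any of the 12, which the naming rule required. COR15A has 1 transgenic array at 7.80, above the 2 others at 5.53 and 5.33.

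The same genotype comparison without DEX tells which differences were already present in mock medium. There 2470 probe sets (10.9%) were called, 5.76% of all higher and 5.1% lower. Of the probe sets higher under DEX 718 were also called higher under mock, and of those lower 756 were also called lower, while 76 were called in opposite directions. The difference of the genotype differences (DEX minus mock) was tested in the same fit and was called for 1085 probe sets (4.77%), 413 positive (1.82%) and 672 negative (2.95%). Over genes by their brightest probe set these shares were 3.88%, with 1.59% positive and 2.29% negative. Of the 4880 probe sets called under DEX, 912 had a called difference of differences, 348 of the higher with a positive value and 545 of the lower with a negative one. The difference of differences contains the DEX difference by which these probe sets were called, so the shared sign is partly built in. A further 2659 were called neither under mock nor for this test, so a change of the genotype difference with DEX was not shown for them.

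For GI the genotype difference was -2.80 with DEX and -2.65 without it, and the 2 were not called different (limma adjusted p = 0.876). COR15A likewise stood at 2.09 with DEX and 2.25 without it (limma adjusted p = 0.946 for the difference). AT2G23910 and AT3G28270 were also higher in 35S:LOB-GR without DEX, by 2.39 and 2.18. By contrast, the fall of EXPA8 was -4.64 with DEX and -1.91 without it, a called difference of -2.73 ± 0.33 (limma adjusted p = 0.00015). GH3.3 was at -3.23 with DEX and -0.76, not called, without it, a called difference of -2.47 ± 0.35 (limma adjusted p = 0.000677).

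The largest positive difference of differences belonged to AT3G51660, at 2.22 ± 0.19 (limma adjusted p = 1.5e-05). It was higher in 35S:LOB-GR with DEX (1.11) and lower without it (-1.12), both called. AT1G48330 (0.83 with DEX, -0.94 without) had the same pattern. AT5G57785 (2.17), SINA2 (1.93), AT1G64405 (1.92) and the alpha-expansin EXPA9 (1.74) rose with DEX and were not called under mock. On the negative side stood AT5G62280 (-3.24), EXPA8, AT5G01210 (-2.61) and AT5G50335 (-2.60). PME41, a pectin methylesterase listed as ATPMEPCRB, was at 6.01 ± 0.16 in 35S:LOB-GR and 7.75 ± 0.29 in Col with DEX, and at 8.97 ± 0.60 in 35S:LOB-GR and 8.12 ± 0.44 in Col without it. It was therefore called lower with DEX (-1.74) and higher without it (0.85), as was AT5G39580 (-1.63 with DEX, 0.87 without).

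**Figure D3:**
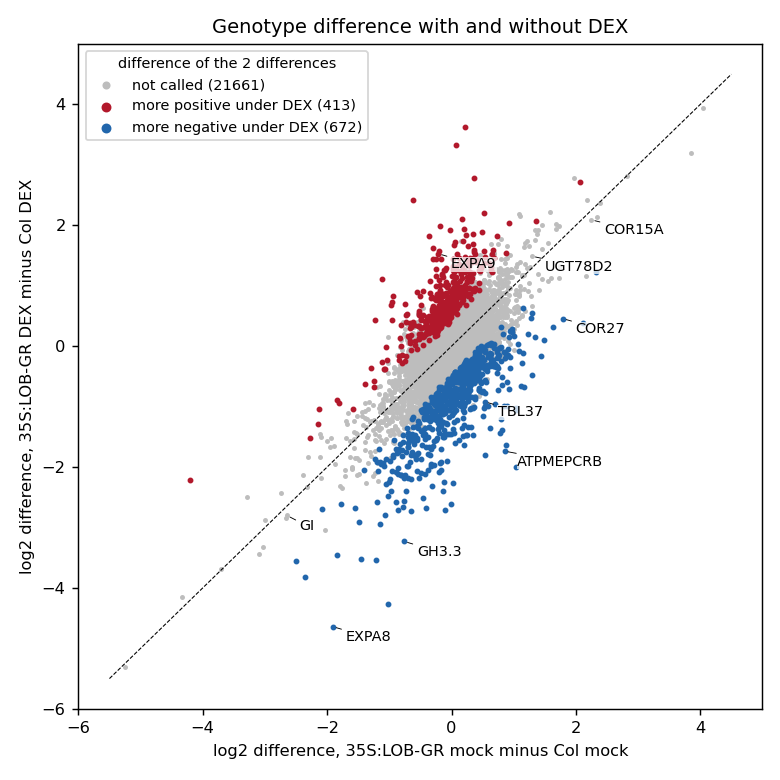
Log2 genotype difference (35S:LOB-GR minus Col) without DEX (horizontal) and with DEX (vertical) for each probe set, with the line of equality dashed. Red points (413) had a called, more positive difference with DEX and blue points (672) a more negative one. GI and COR15A lie near the line, EXPA8 and GH3.3 below it and EXPA9 above it.

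Alpha-expansins changed in both directions. Of 10 measured, 5 rose and 1 fell, and the median was 0.33 beside 0.02 for all genes. The count of each list under DEX is to be read beside the share of all genes called, 19%, with 10.9% higher and 8.16% lower. The lists were written by gene symbol, and of the 1559 genes with a symbol 25.2% were called, 12.9% higher and 12.3% lower. A list near or below these shares shows nothing particular to its family. EXPA4 measured 9.93, 9.80 and 9.91 in 35S:LOB-GR and 8.20, 8.16 and 8.21 in Col, a rise of 1.69 ± 0.094 (limma adjusted p = 8.26e-09). EXPA9 measured 8.60, 8.17 and 8.50 in 35S:LOB-GR and 6.84, 6.97 and 6.87 in Col, a rise of 1.53 ± 0.12 (limma adjusted p = 1.99e-07). Neither gene's arrays overlapped between genotypes. EXPA20 (1.08), EXPA16 (0.92) and EXPA15 (0.51) rose as well, and EXPA8 fell. EXPA4 was among those with a larger rise with DEX than without (0.34 under mock, called difference 1.35), whereas EXPA20 (0.80 under mock) and EXPA16 (1.23) were not called different between treatments.

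Of 9 beta-expansins and expansin-like genes 4 were lower, 1 was higher and 4 were not called, with a median of -0.14. EXLA1 was at 6.74 ± 0.16 in 35S:LOB-GR and 8.66 ± 0.10 in Col, a fall of -1.93 ± 0.13. EXLA2 (-1.15), EXPB1 (-0.96) and EXLA3 (-0.38) fell too. EXPB3 measured 9.51, 8.77 and 8.77 in 35S:LOB-GR and 7.75, 7.85 and 7.89 in Col, a rise of 1.19 ± 0.16 that was larger with DEX than without it (called difference 1.04). These counts of expansin genes were the same whichever DEX array was left out.

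Xyloglucan endotransglucosylases, which cut and rejoin the xyloglucan that tethers cellulose, were lower for 5 of 10 measured, with a median of -0.44. None was called higher by limma, and 0 were higher at an unadjusted p under 0.05. XTH16 measured 7.64, 7.54 and 7.84 in 35S:LOB-GR and 9.65, 9.47 and 9.31 in Col, a fall of -1.80 ± 0.11 (limma adjusted p = 2.64e-08). XTH19 (-1.10) and XTH20 (-1.06) were also lower in every transgenic array than in any wild-type array. XTH33 (-0.64) and EXGT-A3 (-0.33) were the other 2, and the count ranged from 3 to 6 when 1 DEX array was left out. XTH33 lost its call without replicate 2 or 3 of 35S:LOB-GR. The falls of XTH16 and XTH20 were larger with DEX than without it (-0.58 and -0.33 under mock), and XTH19 (-1.02 under mock) was not called different.

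Other wall genes were mixed. CSLC04, which makes the glucan backbone of xyloglucan, measured 8.55, 8.50 and 8.55 in 35S:LOB-GR and 9.53, 9.47 and 9.72 in Col, a fall of -1.04 ± 0.10. CSLA03 of the mannan synthase family also fell (-0.59), and these were the 2 called of 8 cellulose synthase-like genes. TRICHOME BIREFRINGENCE-LIKE genes, a family that includes acetyltransferases of wall polysaccharides, were lower for 5 of 24, with a median of -0.08, and 1 was higher at an unadjusted p under 0.05 only. TBL37 was -0.92 ± 0.095 with DEX and 0.54, called in the opposite direction, without it (limma adjusted p = 1.91e-05 for the difference). TBL25 (-0.66), TBL40 (-0.52) and TBL38 (-0.43) fell as well. Of 15 GH9 endoglucanases GH9A3 rose by 0.63 and GH9B7 fell (-0.45). GH9C2 (0.68) and GH9B8 (0.78) were called higher too, but each lost its call when some DEX array was left out, and the count of higher genes then ranged from 1 to 3. Of 7 class III peroxidases Prx37 rose by 1.23 ± 0.21 and PRX71 fell (-0.68).

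Tubulins, the subunits of microtubules, were lower for 5 of 7 measured, with a median of -0.58. TUB1, a beta-tubulin, measured 6.71, 6.73 and 6.60 in 35S:LOB-GR and 8.34, 8.13 and 8.06 in Col, a fall of -1.50 ± 0.10 (limma adjusted p = 6.58e-08). The genotypes did not overlap, and the fall was larger with DEX than without it (-0.12 under mock, called difference -1.38). TUB6 (-0.76), TUB7 (-0.62) and TUB5 (-0.58) fell by less. TUA6 (-0.39) was called, but its call was lost when a DEX array was left out, and then 4 of 7 were lower. TUA1 (0.33) and TUB9 (0.036) were not called by limma, and TUA1 was higher at an unadjusted p of 0.012.

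IQ-domain proteins bind calmodulin and include microtubule-associated scaffolds, and 5 of 15 were lower, with a median of -0.25. None was called higher by limma, and 0 were higher at an unadjusted p under 0.05. IQD19 measured 5.55, 5.43 and 5.35 in 35S:LOB-GR and 6.45, 6.42 and 6.22 in Col, a fall of -0.92 ± 0.11. IQD21 (listed as iqd21) fell by a like amount, -0.81 ± 0.091, and IQD30 by less (-0.62). Of 11 aurora kinase, spindle checkpoint and cohesion genes 3 were called lower and 8 were not called, with a median of -0.14. Under mock 3 were lower, with a median of -0.26. The mitotic kinases AUR1 (-0.45) and AUR2 (-0.56) were lower in every transgenic array than in any wild-type array. AUR3 (-0.37) lost its call when some DEX array was left out. For AUR1 the difference was also called without DEX (-0.54). None of 10 NET actin-binding genes and none of 7 exocyst genes was called by limma, and 0 of either list had an unadjusted p under 0.05. Differences lay between -0.285 and 0.097 for the NET genes and between -0.153 and 0.184 for the exocyst genes.

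**Figure D4:**
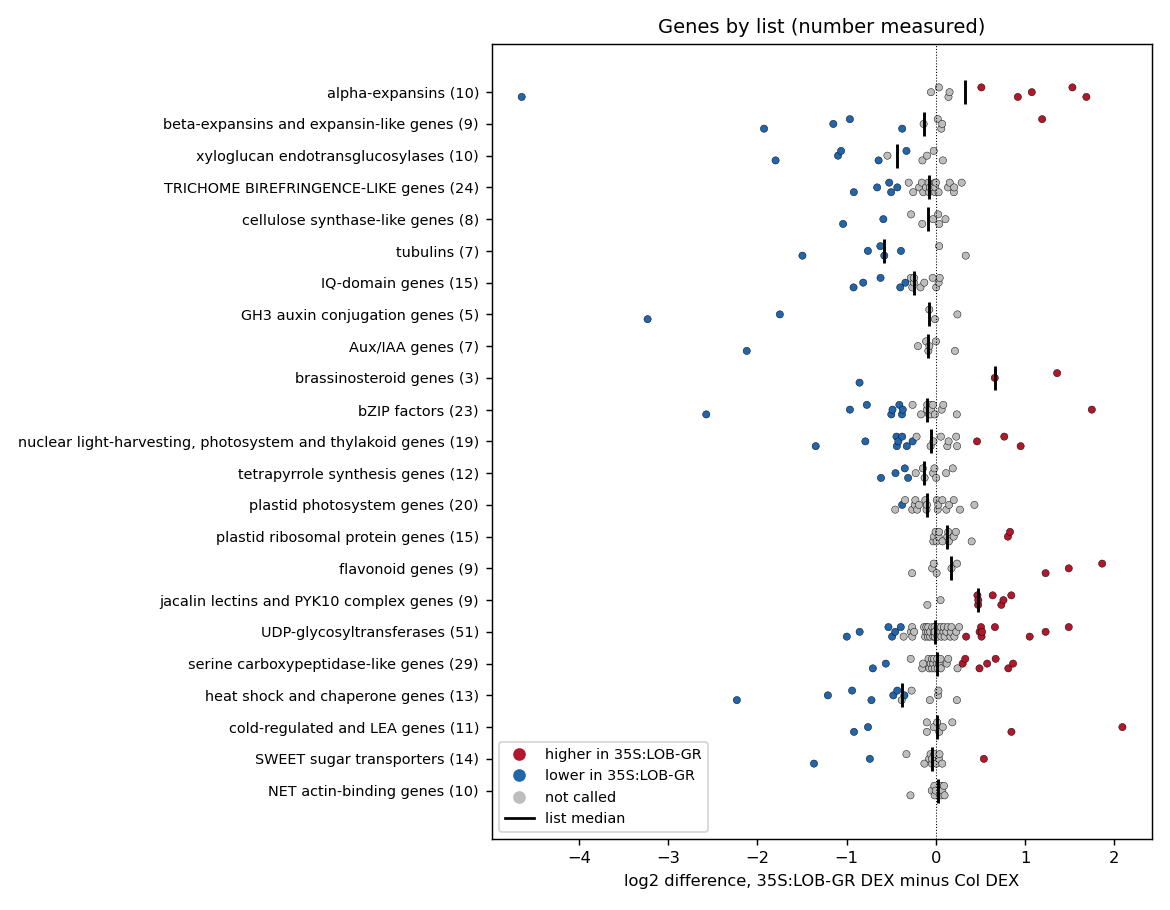
Log2 genotype difference under DEX for the genes of 23 lists, 1 point per gene at its brightest probe set, with the list median as a black bar and the number measured in brackets. Red points were called higher and blue points lower in 35S:LOB-GR. Tubulins (median -0.58) and xyloglucan endotransglucosylases (-0.44) have calls on the lower side only, and jacalin lectins and PYK10 complex genes (0.48) on the higher side only.

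Auxin conjugation genes were represented by 5 measured GH3 genes, of which 2 were lower. Besides GH3.3, GH3.5 (listed as WES1) measured 7.06, 6.75 and 6.53 in 35S:LOB-GR and 8.41, 8.60 and 8.57 in Col, a fall of -1.75 ± 0.15 that was larger with DEX than without it (-0.64 under mock, called difference -1.11). IAA29, an Aux/IAA repressor of auxin response, measured 4.54, 4.29 and 4.08 in 35S:LOB-GR and 6.23, 6.55 and 6.50 in Col, a fall of -2.12 ± 0.14. Its 35S:LOB-GR level was in the low range where sizes are less certain. IAA29 was the 1 called of 7 Aux/IAA genes (14.3%, beside 19% of all genes) and was also lower without DEX (-1.49). Among the glucosyltransferases known to act on auxin, IAGLU and UGT74D1 fell and UGT84B1 was not called (-0.13). IAGLU was at 7.19 ± 0.13 in 35S:LOB-GR and 8.19 ± 0.05 in Col (-0.998), and UGT74D1 at 6.49 ± 0.061 in 35S:LOB-GR and 7.35 ± 0.12 in Col (-0.85). Neither IAGLU nor UGT74D1 was called under mock, and both had a called difference of differences. None of the 4 measured YUCCA auxin synthesis genes was called by limma, 0 of them had an unadjusted p under 0.05, and their differences ran from -0.155 to 0.0093.

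The brassinosteroid genes described are the 3 that were listed, BRL1, BAT1 and BIM1, chosen with earlier results of these data known, so that their number says nothing of the pathway. BRL1, a brassinosteroid receptor, measured 5.17, 5.03 and 5.04 in 35S:LOB-GR and 3.81, 3.71 and 3.64 in Col, a rise of 1.36 ± 0.08 (limma adjusted p = 1.53e-08). Its Col level was in the low range where sizes are less certain. BAT1, an acyltransferase that inactivates brassinosteroids, measured 7.34, 7.34 and 7.23 in 35S:LOB-GR and 6.59, 6.58 and 6.76 in Col, a rise of 0.66 ± 0.088. BIM1, a transcription factor that acts with the brassinosteroid response factor BES1, measured 7.24, 7.21 and 7.16 in 35S:LOB-GR and 8.04, 8.09 and 8.05 in Col, a fall of -0.86 ± 0.10. The genotype differences of BRL1 (0.13 under mock) and BAT1 (-0.14 under mock) were more positive with DEX than without it, with called differences of 1.23 and 0.79. BIM1 was also lower without DEX (-0.44), and its treatments were not called different.

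Transcription factors of the bZIP family were mostly lower among those called, 8 of 23 lower and 1 higher, with a median of -0.10. After BZIP61 came bZIP52 at -0.96 ± 0.15, BZIP34 at -0.77, bZIP18 (AT2G40620) at -0.50 and BZIP60, a factor of the unfolded protein response, at -0.49. HYH, a homologue of the light-signalling factor HY5, was the exception. It measured 5.46, 6.29 and 6.06 in 35S:LOB-GR and 4.16, 4.07 and 4.34 in Col, a rise of 1.75 ± 0.21, and was also higher without DEX (1.22). The Col level of HYH was in the low range where sizes are less certain. YAB5, a YABBY factor of leaf development, was at 8.35 ± 0.24 in 35S:LOB-GR and 7.31 ± 0.14 in Col, a rise of 1.04 ± 0.14. Of 4 NGATHA factors, which act in leaf and flower shape, NGA3 rose (0.68) and 1 was called lower, with a median of -0.11. That lower call was lost when some DEX array was left out. WRKY47 (0.70) and WRKY6 (0.61), of 7 WRKY factors, rose too. Of 8 LOB-domain and boundary genes 1 was called, LBD16 (-0.35), and it lost its call when some DEX array was left out.

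Nuclear genes of light harvesting, the photosystems and thylakoids were split, with 8 of 19 lower, 3 higher and a median of -0.06. LHCB4.2, a minor antenna protein of photosystem II, measured 11.70, 11.68 and 11.79 in 35S:LOB-GR and 13.09, 13.06 and 13.06 in Col, a fall of -1.35 ± 0.11 (limma adjusted p = 6.47e-07). Its paralogue LHCB4.1 was lower by less (-0.44, or -0.29 after quantile normalization), and the third paralogue, LHCB4.3, measured 7.23, 7.63 and 7.46 in 35S:LOB-GR and 6.55, 6.49 and 6.44 in Col, a rise of 0.95 ± 0.14. The 3 paralogues thus moved in different directions, each without overlap between genotypes, and how far their probes share transcripts was not tested. PSAN (-0.79) of photosystem I and PSBW (-0.44) and PSBY (-0.38) of photosystem II were lower. NdhN (0.77), a subunit of the chloroplast NADH dehydrogenase-like complex, was higher. The family that curves thylakoid membranes was split, with CURT1D higher (0.46), CURT1C (AT1G52220) lower (-0.42) and CURT1A (AT4G01150) not called (-0.027).

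Much of this split was also present without DEX. Under mock 8 of the 19 genes were lower and 3 higher, beside 8.87% of all genes called under mock (4.48% higher and 4.4% lower). No difference of differences was called among the 19 by limma, and 1 had an unadjusted p under 0.05. For LHCB4.2 the genotype difference was -1.35 with DEX and -1.22 without it (limma adjusted p = 0.779 for the difference). Tetrapyrrole synthesis genes, which make chlorophyll and haem, were lower for 4 of 12 with a median of -0.14, and 4 of 12 were lower under mock. PORB, a protochlorophyllide oxidoreductase, was at 11.44 ± 0.077 in 35S:LOB-GR and 12.06 ± 0.19 in Col (-0.62), and HEME2 at -0.35. Of 61 plastid-encoded genes 5 rose (8.2%) and 1 fell (1.64%), fewer than the 10.9% and 8.16% of all genes, and the median was 0.04. The higher ones included petN of the cytochrome b6f complex (0.75) and the NDH genes ndhE (0.66) and ndhH (0.57). The calls of rpl22 (0.81) and of psbN (-0.38) were lost when some DEX array was left out. RCA, the leaf marker measured, was at -0.18 (-0.026 after quantile normalization of the arrays) and was not called either way.

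The flavonoid genes called were all higher, 3 of 9 listed, with a median of 0.18. The list, written by symbol, includes TTL (-0.27, not called), whose place in flavonoid synthesis is not established here. Beside CHIL, the flavonoid glucosyltransferase UGT78D2 measured 8.50, 8.25 and 8.40 in 35S:LOB-GR and 6.84, 6.89 and 6.95 in Col, a rise of 1.49 ± 0.09 (limma adjusted p = 1.97e-08). The flavonol rhamnosyltransferase UGT78D1 measured 8.36, 8.55 and 8.59 in 35S:LOB-GR and 7.20, 7.26 and 7.35 in Col, a rise of 1.23 ± 0.11. Each of the 3 was also higher without DEX, by 1.38 for CHIL, 1.29 for UGT78D2 and 1.04 for UGT78D1, and none had a called difference of differences (limma, and 0 of the 9 flavonoid genes at an unadjusted p under 0.05). Over the UDP-glycosyltransferase family, which attaches sugars to small molecules, 9 of 51 rose and 6 fell, and the median was -0.01. UGT71B1 (1.05) and UGT76E11 (0.66) were among the higher ones. Serine carboxypeptidase-like genes were higher for 7 of 29 and lower for 2, led by SCPL48 (listed as scpl48; 0.86), SCPL49 (0.81) and SCPL34 (-0.71). Cytochrome P450 genes of the CYP71B group included CYP71B26, lower by -1.50 with DEX and -2.09 without it, and CYP71B6, higher by 0.58.

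Jacalin lectins and genes of the PYK10 complex were higher for 7 of 9 measured, with a median of 0.48. None was called lower by limma, and 0 were lower at an unadjusted p under 0.05. PYK10 is a beta-glucosidase stored in endoplasmic reticulum bodies, a defence compartment of Brassicaceae seedlings and roots. PYK10 was abundant and measured 12.83, 12.76 and 12.65 in 35S:LOB-GR and 12.32, 12.38 and 12.16 in Col, a rise of 0.47 ± 0.10 (limma adjusted p = 0.00234). NAI2, which is needed to form those bodies, measured 10.37, 10.85 and 10.62 in 35S:LOB-GR and 9.80, 9.75 and 9.76 in Col, a rise of 0.85 ± 0.12. The lectin JAL34 measured 11.90, 11.59 and 11.67 in 35S:LOB-GR and 10.84, 10.95 and 11.10 in Col, a rise of 0.76 ± 0.10, and JAL33 rose by 0.73 ± 0.11. For the genes named here the arrays did not overlap between genotypes.

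JAL22 rose by 0.64 with all arrays and 0.40 without replicate 1 of 35S:LOB-GR, and was called both ways. The remaining 2 of the 7, NAI1 (0.47) and BGLU25 (0.48), lost their calls when some DEX array was left out, and the count then ranged from 5 to 7. No gene of this list was called under mock by limma, and 1 had an unadjusted p under 0.05 there. The genotype difference of JAL33 was more positive with DEX than without it (-0.049 under mock, called difference 0.78 ± 0.15). For JAL34 (0.57) that call was lost when any of 9 arrays was left out, and for PYK10 (0.15 under mock) and NAI2 (0.32 under mock) the treatments were not called different.

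Heat shock and chaperone genes were lower for 7 of 13 measured, with a median of -0.38, and 1 was higher at an unadjusted p under 0.05 only. FKBP65 (AT5G48570), a peptidyl-prolyl isomerase induced by heat, measured 4.98, 5.83 and 5.19 in 35S:LOB-GR and 7.84, 7.74 and 7.11 in Col, a fall of -2.23 ± 0.21 (limma adjusted p = 1.85e-06). ERDJ3B (listed as ATERDJ3B), a J-protein of the endoplasmic reticulum, measured 8.26, 8.62 and 8.47 in 35S:LOB-GR and 9.77, 9.62 and 9.59 in Col, a fall of -1.21 ± 0.10. Hop3, which links Hsp70 and Hsp90, was at 4.96 ± 0.34 in 35S:LOB-GR and 5.89 ± 0.33 in Col (-0.94). Hsp70-2 measured 7.98, 7.28 and 7.62 in 35S:LOB-GR and 8.36, 8.32 and 8.36 in Col, a fall of -0.72 ± 0.16. Without DEX its difference was 0.44, in the opposite direction and not called, and the difference of differences was called (-1.16). FKBP65 (-1.18) and ERDJ3B (-0.79) were also lower under mock, as were 4 genes of the list in all. Without Fes1A, whose call was lost when some DEX array was left out, 6 of 13 were lower.

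**Figure D5:**
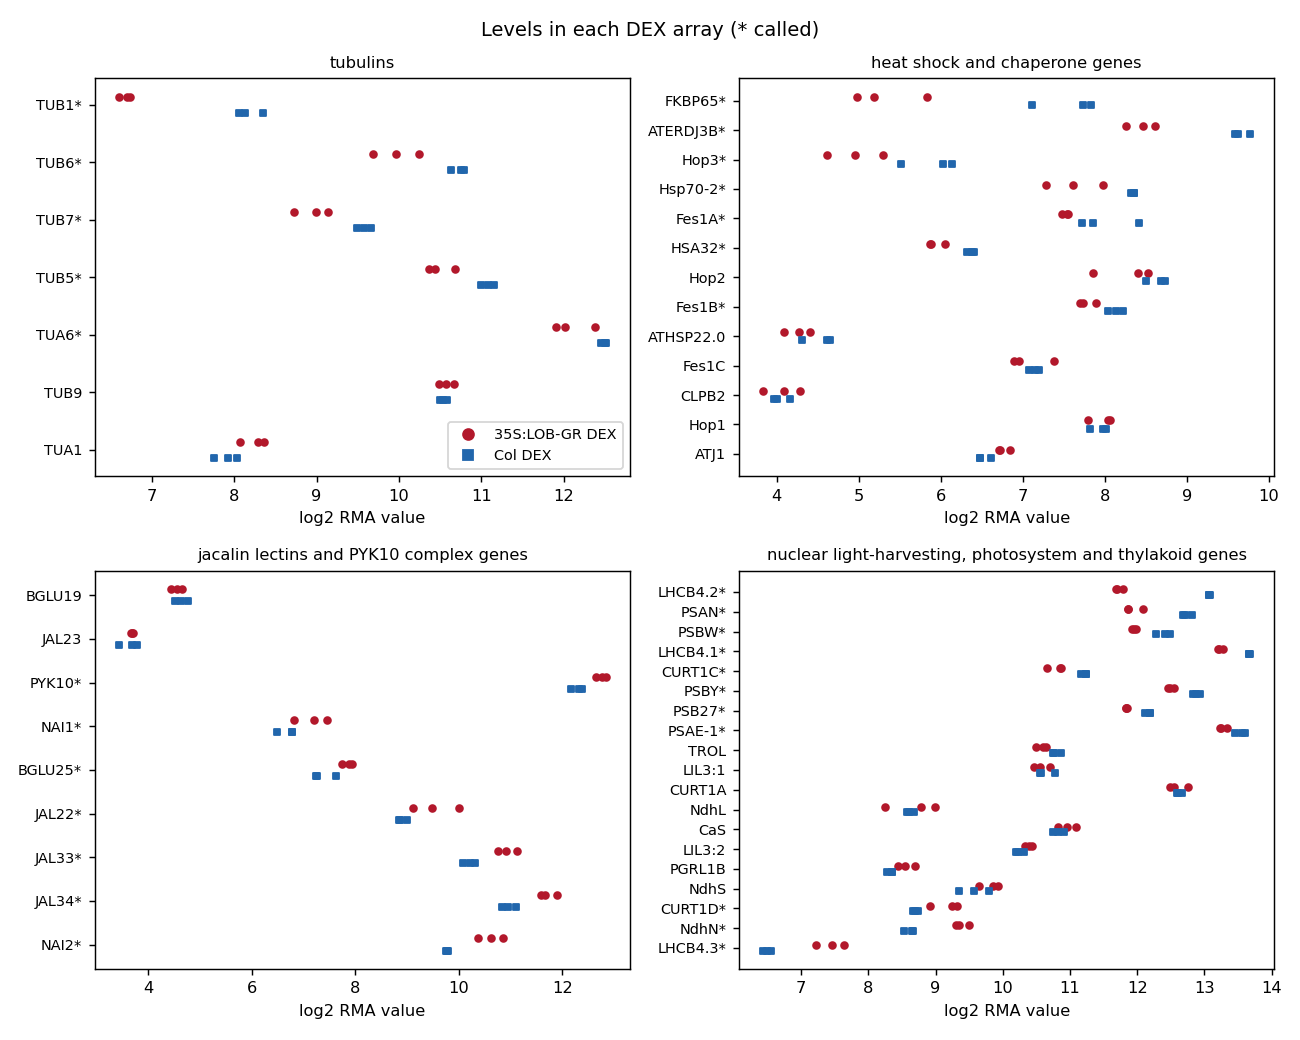
Log2 RMA levels in each DEX array for all measured genes of 4 lists, 35S:LOB-GR as red circles above Col as blue squares, ordered by the genotype difference. An asterisk marks a called gene. TUB1 and FKBP65 show the widest gaps on the lower side of their lists, and LHCB4.3 lies on the opposite side from LHCB4.2.

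Cold-regulated and LEA genes, which protect cells during dehydration and cold, changed in both directions, with 2 of 11 higher and 2 lower. Beside COR15A, LEA27 (AT2G46140) rose by 0.85 ± 0.16. The dehydrin COR47 measured 9.72, 9.49 and 8.82 in 35S:LOB-GR and 10.17, 10.31 and 10.29 in Col, a fall of -0.92 ± 0.16, and the dehydrin LTI30 fell too (-0.76). Small secreted defence peptides were mostly lower among those called, 3 of 16 lower and 1 higher. THI2.2, a thionin, fell with DEX (-1.28) and without it (-1.69), while the cysteine-rich peptides LCR68 (-0.88) and LCR69 (-0.73) were not called under mock (0.072 and -0.036).

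Sugar carriers of the SWEET family included 2 lower and 1 higher of 14 (21.4% called, beside 19% of all genes and 25.2% of those with a symbol). SWEET16, a vacuolar membrane carrier, measured 6.87, 6.43 and 6.18 in 35S:LOB-GR and 7.86, 8.002 and 7.72 in Col, a fall of -1.37 ± 0.16. SWEET17, also of the vacuolar membrane, fell by less (-0.74), and SWEET11, which exports sucrose from cells, rose by 0.54. Genes of the tricarboxylic acid and related cycles were higher for 5 of 15, with a median of 0.03, and 4 were also higher under mock. They included the isocitrate dehydrogenase subunits IDH-VI (0.69) and IDH-V (0.46) and the succinate dehydrogenase subunit SDH1-1 (0.46). Single members of other families moved in opposite directions, such as the autophagy genes ATG8E (-0.68) and ATG8D (0.41) and the tetraspanins TET3 (-1.13) and TET5 (0.43).

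Over the 711 distinct genes of the lists 84 were higher (11.8%) and 107 lower (15%), beside 1454 higher (10.9%) and 1090 lower (8.16%) of 13356 genes in all. Of the 1559 genes with a symbol 201 were higher (12.9%) and 192 lower (12.3%). The lists were chosen with earlier results of these data known, so a share above that of all genes may be built in. Of 40 tissue markers listed 8 were measured. None was called by limma, and 2 (RCA and LAS) had an unadjusted p under 0.05. The 8 were RCA for leaves, EXPA7 (0.15) and EXPA18 (0.14) for root hairs, SPCH (-0.23), MUTE (-0.23) and FMA (0.083) for the guard cell line, and LAS (-0.29) and CLV3 (-0.10) for the shoot meristem and boundaries. Markers of the endodermis and of vascular tissue were not among the named probe sets and are not analysed here. The part that tissue proportions had in the differences was not tested beyond these markers.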

How the data were processed

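RNA from whole seedlings was hybridised to 12 Affymetrix arrays of 1 colour, 4 groups of 3. Each deposited value is the log2 expression of 1 probe set on 1 array, from RMA per the submitters' processing notes, with no version given. RMA equalises the distributions of the arrays, which would reduce a shift shared by most transcripts. Values ran from 2.71 to 14.14, and the number of arrays limits the precision. Whether replicates came from separate platings is not stated beyond the word biological, so p-values measure the spread between these arrays.

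Of 22810 probe sets 64 controls were left out. Gene names came from the annotation of the platform and a RefSeq table of assembly TAIR10.1. In it 13513 probe sets had 1 gene, 503 had several and 8730 had none, and 13436 of those with 1 gene matched RefSeq. The brightest probe set stood for a gene. RefSeq symbols and synonyms are the source of names, and genes with only a locus name are given no function beyond their place in a list. AT1G47400, named only by locus, was placed among the iron homeostasis genes.

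The means of the 4 groups were estimated in 1 model of the 12 arrays (limma 3.58.1, R 4.3.3, lmFit and eBayes, 8 residual degrees of freedom), with no block for the replicate number. Contrasts were 35S:LOB-GR minus Col with DEX, the same without DEX, and the difference of these. The first 2 share no arrays with each other, and the third uses the arrays of both. Tests were two-sided, with Benjamini-Hochberg adjustment over 22746 probe sets. Figures were drawn with matplotlib 3.10.9.

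The text names the 15 genes in each direction with the largest difference among those called and not overlapping between genotypes. It also names 6 in each direction for the difference of differences. The naming rule further covers up to 4 called members per list, and all members of lists of 5 or fewer measured genes. Not all of these list members are named in the text. Other members of lists are named where a count needed them. The lists and members were chosen with earlier results of these data known. Because the RefSeq table held no descriptions, 65 lists were written by gene symbol instead of by description, with marker lists beside them, and 1 list is not reported here.

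On simulated data with 200 changed probe sets among 22746 the fit for the genotype difference under DEX recovered 58.2% of differences of 0.5 on the log2 scale, 94% of those of 1 and 100% of those of 2, and made 10 false calls. The difference of differences had shares of 17.9%, 80.6% and 98.5% and 5 false calls. In the data far more probe sets were called, 4880 under DEX and 1085 for the difference of differences. The adjusted p depends on how many change, so these shares need not hold for the data. The alternatives changed the normalization, the spread estimate or the threshold, filtered dim probe sets, blocked on the replicate number, or omitted arrays one at a time.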

Additional observations from a re-analysis of the deposited data

Results flagged for a closer look

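Among the 738 genes of the naming rule and the lists, 68 had a genotype difference that was called different with DEX from that without it, 23 more positive and 45 more negative with DEX. Over all 13356 genes the called share was 3.88%, with 1.59% positive and 2.29% negative. The 738 include genes named for the largest differences, and the lists were chosen with earlier results known, so these counts are partly built in. Each value below is the difference of the log2 differences (DEX minus mock), tested in the limma fit over all 12 arrays.

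Among wall genes the positive values were EXPA9 at 1.74, EXPA4 at 1.35 and EXPB3 at 1.04. The negative ones were EXPA8 at -2.73, PME41 (ATPMEPCRB) at -2.59, TBL37 at -1.46, XTH16 at -1.22, EXLB1 at -1.01, EXLA2 at -0.93, EXPB1 at -0.75, XTH20 at -0.73, CSLC04 at -0.58 and PMEPCRF at -0.48. EXLB1 was called higher under mock (0.88) and not called under DEX (-0.14).

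Microtubule-related genes had negative values only among those listed, TUB1 at -1.38, IQD23 at -0.68, iqd21 at -0.63 and IQD19 at -0.60. Hormone and peptide signal genes had positive values for BRL1 at 1.23 and BAT1 at 0.79 and negative values for GH3.3 at -2.47, IAGLU at -1.19, GH3.5 (WES1) at -1.11, UGT74D1 at -0.91 and CLE41 at -0.77.

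Genes with only a locus name were more positive with DEX for AT3G51660 at 2.22, AT5G57785 at 2.17, AT1G64405 at 1.92, AT1G48330 at 1.77, AT1G70000 at 1.67, AT1G30260 at 1.405 and AT5G47610 at 1.12. They were more negative for AT5G62280 at -3.24, AT5G01210 at -2.61, AT5G50335 at -2.60, AT5G39580 at -2.50, AT3G12710 at -2.27, AT3G07010 at -2.07, AT4G34220 at -2.06, AT4G18970 at -1.84, AT3G13980 at -1.42, AT1G75960 at -1.41, AT5G02540 at -1.39 and AT1G62510 at -1.13.

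In the other lists the positive values were SINA2 (AT3G13672) at 1.93, LEA27 (AT2G46140) at 1.08, rpl14 at 0.96, rps16 at 0.90, PUB22 at 0.83, JAL33 at 0.78, PDF2.5 at 0.68, scpl48 at 0.66, TET5 at 0.58, JAL34 at 0.57 and SCPL45 at 0.49. The negative values were BZIP61 at -1.68, COR27 at -1.34, Hsp70-2 at -1.16, bZIP52 at -1.01, SWEET1 at -1.001, LCR68 at -0.95, BGLU44 at -0.90, SCPL34 at -0.78, GSTU20 at -0.70, LCR69 at -0.70, BGLU40 at -0.62, psbN at -0.60, SWEET2 at -0.57 and UGT72B3 at -0.56. COR27, a cold-regulated clock gene, was higher in 35S:LOB-GR without DEX (1.79) and less so with it (0.46). SWEET1, a sugar carrier, was higher without DEX (0.67) and not called with it (-0.33).

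Of these 68 calls 52 held whichever of the 12 arrays was left out. The other 16 lost their call without at least 1 array, namely EXLA2, GSTU20, LCR69, IQD23, IQD19, psbN, CSLC04, SWEET2, UGT72B3, PMEPCRF, SCPL45, JAL34, TET5, PUB22, rps16 and rpl14. With 3 arrays per group no array was screened as an outlier within its group. No explanation of these differences was tested.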

How the results depend on the processing

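The count of 4880 probe sets called under DEX was 3018 at an adjusted p under 0.01 and 709 with a 2-fold rule added. The count of 1085 for the difference of differences was 474 and 329 under the same thresholds, which are stricter by construction. The share of calls that were higher in 35S:LOB-GR was 54.6% at first, 52% after quantile normalization, 49.4% at an adjusted p under 0.01 and 32.2% with the 2-fold rule. Centring each array, quantile normalization, the filter on dim probe sets, the other spread estimates and array weights gave 4658 to 5804 calls under DEX and 1064 to 1450 for the difference of differences. The 6 DEX arrays alone gave 4310 calls. Leaving out 1 array gave 3592 to 5440 calls under DEX and 724 to 1591 for the difference of differences. In both cases the highest count came without replicate 1 of 35S:LOB-GR with DEX and the lowest without replicate 2 of Col with DEX.

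With the replicate number as a block 4750 probe sets were called under DEX and 993 for the difference of differences. The numbers share nothing that the labels state, and same-numbered DEX arrays of the genotypes did not deviate together (correlations of -0.043, -0.017 and 0.076), so the arrays were not treated as paired.

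Of the 213 genes covered by the naming rule 177 were called under DEX, and none reversed its sign under any alternative run while called. Robust eBayes lost none of these calls, centring lost 1, array weights 2, quantile normalization 4, the intensity trend 7, the block 10 and the fit of 6 arrays 12. Leaving out 1 array lost 11 to 24. The filter on dim probe sets kept 183 of the 213 genes and lost no call among them. Simulated differences of 0.5 were often missed, in a setting with fewer changed probe sets than the data had calls. An uncalled gene is not shown to be unchanged. The search for a promoter motif was not run, because no sequence table was at hand.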

Other observations

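CHX16, a cation/H+ exchanger, was at 4.86 ± 0.15 in 35S:LOB-GR and 5.91 ± 0.043 in Col, a fall of -1.05 ± 0.11. It was the 1 called of 7 (14.3%, beside 19% of all genes). Of 21 beta-glucosidases 3 were higher and 3 lower (28.6% called, beside 25.2% of genes with a symbol). When 1 DEX array was left out, 1 or 2 were higher and 3 or 4 lower. BGLU44 was at 9.69 ± 0.047 in 35S:LOB-GR and 10.90 ± 0.084 in Col (-1.20), and its fall was larger with DEX than without it (-0.31 under mock, called difference -0.90). Of 8 glucosinolate genes 1 was higher and 2, BCAT4 (-0.54) and GTR2 (-0.41), were lower. Both lower calls were lost without replicate 3 of 35S:LOB-GR with DEX. The higher one, the transporter GTR1, was also higher without DEX (0.62 with DEX, 0.81 without). GLR2.7 rose by 0.76 as the 1 called of 8 glutamate receptor-like genes (12.5%). Of 9 PUB ubiquitin ligases (22.2% called) PUB22 rose by 0.79 and PUB23 fell (-0.37). None of GLR2.7, PUB22 and PUB23 was called under mock. Of 14 iron homeostasis genes 3 were higher, AT1G47400 (2.15), PYE (0.59) and the ferroxidase LPR2 (0.46), and bHLH121 was lower (-0.41). Of 8 histone genes 2 were higher, the H2B genes HTB1 (0.38) and HTB11 (0.38), and the linker histone HIS1-3 was lower (-0.96). PYE, PUB23, HTB11 and HIS1-3 lost their call under DEX when some DEX array was left out, while CHX16, BGLU44, GTR1, GLR2.7, PUB22, AT1G47400, LPR2, bHLH121 and HTB1 kept theirs whichever was left out.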
